A study of Homo sapiens with 12 samples.

Results

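The solute carrier (SLC) genes encode membrane proteins that move amino acids, sugars, nucleotides, metals, ions and mitochondrial metabolites, and each symbol gives the subfamily number after the letters SLC. They were examined in LNCaP, an established androgen-responsive human prostate carcinoma line, after transfection of a miR-135b precursor or of a scrambled precursor, the pre-miR negative control #1, each at 20 nM. RNA was taken 12, 24 or 36 h later. The 6 groups were miR-135b at 12, 24 and 36 h and scrambled at 12, 24 and 36 h, with 2 biological repeats each on 12 single-colour Illumina arrays. All groups therefore share the same line, dose and transfection step, no untransfected group was analysed here, and miR-135b was supplied at the level a precursor gives and not at the cells' own level. A gene was a member where its current symbol starts with SLC and a digit, which held for 383 genes of 57 subfamilies on the array. It was tested where a probe had a detection p under 0.01 on 2 or more of the 12 arrays, which left 207 genes of 50 subfamilies among the 11238 genes tested in all.

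SLC proteins carry their substrates down a gradient or couple them to the flow of sodium, protons or another solute, without splitting ATP themselves. In prostate epithelium the family is best known for zinc, which normal luminal cells accumulate through SLC39 importers, and for amino acid uptake. SLC39 proteins bring zinc into the cytosol, SLC30 proteins take it out of the cytosol into organelles or out of the cell, and SLC31 proteins handle copper. A microRNA lowers the level or translation of messenger RNAs that pair with its seed, which is bases 2 to 8. Both arms annotated for miR-135b are shown because the seed is what any pairing would start from. How much of each arm the precursor gave in the cells was not measured here. The sequences are RefSeq's on build GRCh38.p14 and run from 5′ to 3′, with the seed in capitals. The 5p arm lies at chr1:205448361-205448383 and the 3p arm at chr1:205448323-205448344, both on the minus strand.
hsa-miR-135b-5p: uAUGGCUUuucauuccuauguga
hsa-miR-135b-3p: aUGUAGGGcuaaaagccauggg
Seed matches in the SLC messenger RNAs were not searched here.

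Of the 207 tested genes, 168 were detected on all 12 arrays. The other 176 of the 383 were not tested, 163 of them detected on 0 arrays and 13 on 1. Because detection in a single treatment was enough to be tested, SLC45A2 entered with 4 detected miR-135b arrays and 0 scrambled arrays, and SLC16A13, SLC22A11 and SLC9A3 with 2 and 0. The tested members included 7 pseudogenes or non-coding transcripts. A few, such as SLC2A4RG and SLC7A6OS, share the first letters of a carrier's symbol without being carriers. Both kinds are counted below in the class of their subfamily number, also where the class is called carriers. Between 175 and 197 of the 207 were detected per array. All 10 tested luminal prostate markers were detected on 12 arrays, while 0 of 4 basal markers were tested. Their mean log2 signal lay between 9.27 and 9.78 on miR-135b arrays and between 9.44 and 9.93 on scrambled arrays, and 1 of the 10, the prostatic acid phosphatase gene ACP3, fell (-0.78 ± 0.12, adjusted p = 0.00623), with STEAP2 (-0.30) added in the paired fit described below. Of the neuroendocrine, fibroblast and leukocyte markers, 1 of 4, 1 of 5 and 1 of 5 were tested, and none of these was called. The part of such cell state in the SLC values was not tested.

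Over the mean of the 3 times, 4 SLC genes were higher and 8 were lower in miR-135b than in scrambled cells, and 195 did not pass the test. These 12 are 5.8% of the 207, beside 4.78% of all genes tested, 1.97% for rises and 2.81% for falls. A call here is an adjusted p under 0.05 from limma with Benjamini-Hochberg adjustment over all 11238 genes. A value after a gene name is its log2 fold change, miR-135b over scrambled. The ± beside it is the standard error of this unpaired limma fit, also where a p of the paired fit is given. The genes that rose were SLC7A9, SLC30A6, SLC25A44 and SLC20A2, and those that fell were SLC31A2, SLC1A4, SLC35D4, SLC30A7, SLC49A4, SLC29A3, SLC25A11 and SLC25A15. The family's median was 0.02, beside 0 for all genes, and its central 50% of values lay between -0.09 and 0.13, beside -0.11 and 0.11. With median scaling in place of quantile normalization only SLC31A2 and SLC7A9 of the 12 passed, and on the authors' processed values the split was 7 rises and 7 falls. Without the detection filter the calls of SLC25A11, SLC29A3 and SLC1A4 were lost. As the arrays read RNA from whole cultures, fewer cells with a transcript and less of it per cell cannot be told apart.

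**Figure D1:**
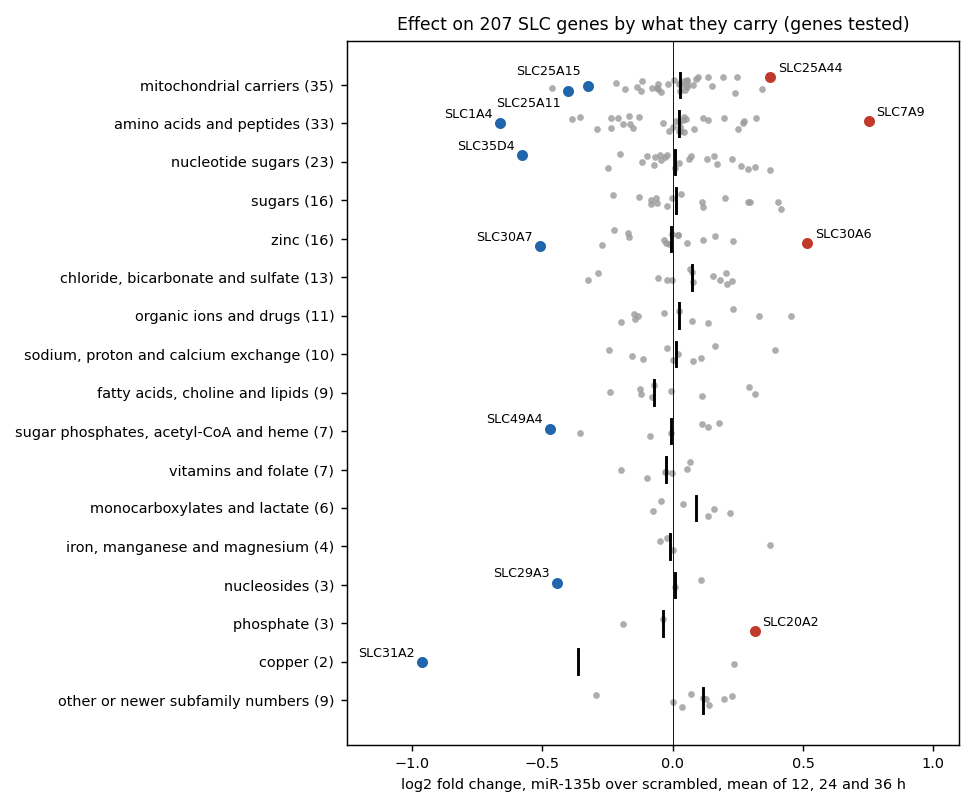
Log2 fold change, miR-135b over scrambled, mean of 12, 24 and 36 h, for the 207 tested SLC genes, grouped by what the subfamily carries, with the number of genes tested in brackets. Red points rose and blue points fell at an adjusted p under 0.05, grey points did not pass, and black bars are class medians. The 12 genes that passed lie in 8 of 17 classes, and the class medians stay between -0.07 and 0.12 except for copper, which has 2 genes.

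Copper carriers gave the lowest value in the family. SLC31A2, known as CTR2, is a copper transporter of endosomes and lysosomes. Its log2 signal was 7.13 and 6.97 at 12 h, 6.76 and 6.48 at 24 h and 6.68 and 6.45 at 36 h on miR-135b arrays, against 7.61 and 7.68, 7.86 and 7.84, and 7.88 and 7.38 on scrambled arrays. Every miR-135b array was below every scrambled array, also across times. SLC31A2 fell by 0.963 ± 0.104 on the log2 scale (adjusted p = 0.00095), to 0.513 times the scrambled level. The effect was -0.59 at 12 h (adjusted p = 0.843), -1.23 at 24 h (0.0194) and -1.07 at 36 h (0.0222). The change in this effect between the first and last time (36 h minus 12 h) was -0.475, with a 95% interval from -1.05 to 0.1. On the authors' processed values, which follow the uncorrected signal closely, the mean effect was -0.63 (adjusted p = 0.00035).

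SLC31A1, or CTR1, is the high-affinity copper importer of the plasma membrane. It had 9.81 and 9.77 at 12 h, 9.78 and 9.96 at 24 h and 9.61 and 9.88 at 36 h with miR-135b, against 10 and 9.73, 9.53 and 9.23, and 9.41 and 9.50 with scrambled. The miR-135b arrays were all above the scrambled arrays at 24 and 36 h and overlapped them at 12 h. The mean effect was 0.236 ± 0.092 and did not pass the test (adjusted p = 0.21). The difference between the 2 copper carriers was not tested, since they were set side by side with their effects known. Of the other copper genes on the lists, the exporting ATPase gene ATP7A had 0.35 ± 0.12 (adjusted p = 0.164, or 0.019 in the paired fit), ATP7B 0.00 ± 0.10, and the copper chaperone genes ATOX1, COX17 and SCO1 0.04 ± 0.11, -0.12 ± 0.08 and 0.15 ± 0.08, none of which passed. CCS, which delivers copper to superoxide dismutase, had 0.33 ± 0.15 (0.287, or 0.0439 paired), and COX11, which delivers copper to cytochrome oxidase, rose by 0.47 ± 0.10 (adjusted p = 0.0257).

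Zinc carriers moved in both directions. Of 16 tested genes of SLC30 and SLC39, 1 rose and 1 fell, with a median of -0.01. SLC30A7 and SLC30A6 both belong to the zinc exporters that load the Golgi and early secretory pathway, SLC30A6 as a partner of SLC30A5. SLC30A7 had 9.33 and 9.22 at 12 h, 9.07 and 9.18 at 24 h and 9.21 and 9.01 at 36 h with miR-135b, against 9.75 and 9.50, 9.55 and 9.79, and 9.64 and 9.86 with scrambled. All 6 miR-135b arrays were below all 6 scrambled arrays. SLC30A7 fell by 0.51 ± 0.088 on the log2 scale (adjusted p = 0.0101), and its values were -0.35, -0.55 and -0.64 at 12, 24 and 36 h.

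SLC30A6 had 6.47 and 6.77 at 12 h, 6.80 and 6.50 at 24 h and 6.76 and 6.58 at 36 h with miR-135b, against 5.92 and 6.27, 6.14 and 6.13, and 6.23 and 6.09 with scrambled. All 6 miR-135b arrays were above all 6 scrambled arrays. SLC30A6 rose by 0.517 ± 0.100 (adjusted p = 0.0174), with 0.52, 0.52 and 0.51 at the 3 times. On the authors' processed values it had 0.269 (adjusted p = 0.0336). Leaving out 1 array ended its call in 4 of 12 cases, namely miR-135b at 12 h repeat 2 and 24 h repeat 1 and scrambled at 24 h repeat 2 and 36 h repeat 2, with an adjusted p up to 0.0571. Its partner gene SLC30A5 had 0.055 ± 0.11, with a 95% interval from -0.2 to 0.31.

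The zinc importers gave 0 calls among 10 tested SLC39 genes, between -0.27 for SLC39A11 and 0.23 for SLC39A14. SLC39A1, the importer most often named in prostate, had 10.41 and 10.37, 10.68 and 10.32, and 10.44 and 10.14 with miR-135b at 12, 24 and 36 h, against 10.33 and 10.46, 10.56 and 10.23, and 10.46 and 10.32 with scrambled. The groups overlapped at each time, and its effect was 0.00 ± 0.10 with a 95% interval from -0.23 to 0.22. SLC30A1, the plasma membrane zinc exporter, had -0.015 ± 0.074, with a 95% interval from -0.18 to 0.15. Of the metal-binding metallothionein genes, MT2A had -0.04 ± 0.15, MT1X -0.22 ± 0.15 and MT1F -0.12 ± 0.10, and 0 of these 3 passed.

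**Figure D2:**
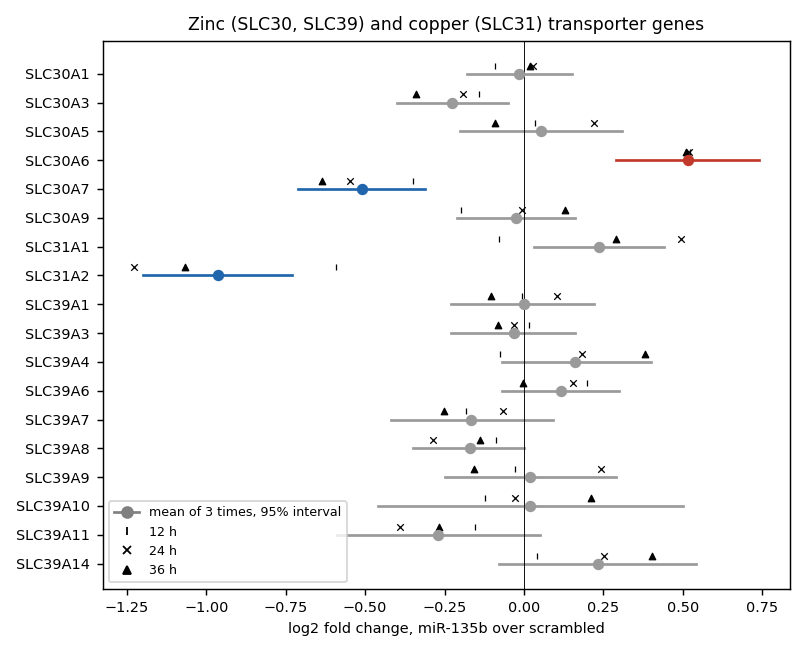
Log2 fold change, miR-135b over scrambled, for the tested zinc (SLC30, SLC39) and copper (SLC31) transporter genes. Circles with lines are the mean of 3 times with its 95% interval, red for a rise and blue for a fall at an adjusted p under 0.05, and small black marks are the effects at 12, 24 and 36 h. SLC31A2 and SLC30A7 lie left of 0 and SLC30A6 right of 0 at all 3 times.

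Among 33 tested genes of the amino acid and peptide class, 1 rose and 1 fell (2 and 4 in the paired fit), with a median of 0.02. SLC7A9 is the light chain of the cystine and dibasic amino acid transporter of kidney and gut. It had 6.33 and 6.39 at 12 h, 6.17 and 6.58 at 24 h and 6.46 and 6.48 at 36 h with miR-135b, against 6.04 and 5.70, 5.36 and 5.64, and 5.57 and 5.58 with scrambled. All 6 miR-135b arrays were above all 6 scrambled arrays. The fitted rise was 0.753 ± 0.101 (adjusted p = 0.00297). The probe was detected on 6 of 6 miR-135b arrays and on 3 of 6 scrambled arrays, so part of the scrambled level is signal not well above background. At 36 h the scrambled level was below detection on both arrays. The estimated rise was at least 1.76-fold (means 6.47 and 5.58), and the fitted effect passed at that time (adjusted p = 0.0354). For this bound each scrambled array entered at its own signal or at the dimmest signal detected on that array, whichever was brighter. It is a bound on the estimate, and it leaves out the spread between repeats. On the authors' processed values the mean effect was 0.344 (adjusted p = 0.00709).

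SLC1A4, or ASCT1, exchanges small neutral amino acids such as serine and alanine. It had 6.16 and 5.81 at 12 h, 5.70 and 5.58 at 24 h and 4.81 and 5.52 at 36 h with miR-135b, against 6.64 and 6.03, 6.57 and 6.25, and 6.13 and 5.92 with scrambled. The groups overlapped at 12 h and were apart at 24 and 36 h. The fitted value was -0.663 ± 0.154 (adjusted p = 0.0402), with detection on 3 of 6 miR-135b arrays and 6 of 6 scrambled arrays. At 36 h SLC1A4 was detected on 0 of 2 miR-135b arrays. The estimated fall there was at least 1.3-fold (means 5.16 and 6.02), but that time did not pass on its own (adjusted p = 0.173). As for SLC7A9, this is a bound on the estimate and leaves out the spread between repeats. The call was lost when any 1 array was left out except miR-135b at 36 h repeat 2 or scrambled at 12 h repeat 2 (adjusted p up to 0.118), and on the authors' processed values (-0.303, adjusted p = 0.0519).

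Of the other amino acid carriers on the list of well-known genes, SLC38A1 had -0.23, SLC7A1 -0.16, SLC6A9 -0.13 and SLC38A2 0.12, and none of these 4 passed. SLC7A5, the large neutral amino acid transporter LAT1, had 0.01 ± 0.13 and its partner SLC3A2 had 0.13 ± 0.10. The cystine and glutamate exchanger gene SLC7A11 had 0.03 ± 0.13, and the glutamine transporter gene SLC1A5 had -0.19 ± 0.11, and these 4 did not pass either. SLC43A1, or LAT3, a transporter of branched-chain amino acids described in prostate cancer cells, had 6.73 and 6.90, 6.99 and 6.48, and 6.70 and 6.89 with miR-135b at the 3 times, against 7.36 and 6.97, 7.32 and 7.05, and 7.16 and 7.15 with scrambled. Its miR-135b arrays were below the scrambled arrays at each of the 3 times, and its effect of -0.388 ± 0.115 missed the threshold (adjusted p = 0.0973, or 0.0364 in the paired fit).

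Mitochondrial carriers, all of subfamily SLC25, were the largest group, with 35 tested genes, of which 1 rose and 2 fell (1 and 3 in the paired fit) and whose median was 0.03. SLC25A44 imports branched-chain amino acids into mitochondria. It had 9.96 and 10.06, 9.89 and 9.98, and 9.94 and 10.04 with miR-135b at the 3 times, against 9.46 and 9.57, 9.61 and 9.74, and 9.57 and 9.68 with scrambled. All 6 miR-135b arrays were above all 6 scrambled arrays, a rise of 0.375 ± 0.070 (adjusted p = 0.0151). Its call ended when miR-135b at 12 h repeat 2 or 24 h repeat 2, or scrambled at 24 h repeat 1 or 36 h repeat 1, was left out, with an adjusted p up to 0.0571.

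SLC25A11, the oxoglutarate and malate carrier, had 9.33 and 9.19, 9.15 and 9.08, and 8.74 and 8.89 with miR-135b at the 3 times, against 9.86 and 9.42, 9.61 and 9.42, and 9.27 and 9.22 with scrambled. SLC25A15, the ornithine carrier of the urea cycle, had 9.90 and 9.67, 9.53 and 9.42, and 9.44 and 9.40 with miR-135b, against 10.10 and 10.11, 9.71 and 9.81, and 9.78 and 9.80 with scrambled. For both genes the miR-135b arrays were below the scrambled arrays of the same time, and the means at 36 h were below those at 12 h in both treatments. SLC25A11 fell by 0.401 ± 0.092 (adjusted p = 0.0382) and SLC25A15 by 0.325 ± 0.071 (adjusted p = 0.0313) on the log2 scale. A second kept probe of SLC25A15 had -0.13 ± 0.11, and the mean of both probes did not pass. Each of these calls was lost in 11 of 12 cases with 1 array left out, kept only without scrambled at 12 h repeat 2 for SLC25A11 and without miR-135b at 12 h repeat 1 for SLC25A15, with an adjusted p up to 0.114 and 0.1. The ADP and ATP carriers SLC25A4 and SLC25A5 had 0.06 ± 0.08 and -0.22 ± 0.07, the phosphate carrier SLC25A3 0.05 ± 0.07 and the citrate carrier SLC25A1 0.08 ± 0.09, and none of these 4 passed.

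SLC49A4 is a lysosomal membrane transporter. It had 9.23 and 9.20, 9.39 and 9.28, and 9.31 and 9.36 with miR-135b at the 3 times, against 9.58 and 9.74, 9.76 and 9.77, and 9.93 and 9.84 with scrambled. The 2 treatments did not overlap over all 12 arrays. It fell by 0.472 ± 0.068 on the log2 scale (adjusted p = 0.00416), with -0.44, -0.43 and -0.55 at 12, 24 and 36 h. SLC29A3, the nucleoside carrier ENT3 of lysosomes and 1 of 3 tested nucleoside carriers, had 6.99 and 7.18, 6.85 and 6.97, and 6.95 and 7.35 with miR-135b, against 7.64 and 7.62, 7.55 and 7.31, and 7.60 and 7.24 with scrambled. The treatments were apart at 12 and 24 h and overlapped at 36 h, and the mean effect was -0.443 ± 0.103 (adjusted p = 0.04). That call held without miR-135b at 36 h repeat 2 or scrambled at 36 h repeat 2 and was lost without any of the other 10 arrays (adjusted p up to 0.109), and the effect was -0.294 on the authors' processed values.

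SLC35D4 belongs to subfamily SLC35, taken here as the nucleotide sugar class, though some members carry other solutes, such as SLC35B3 below. Of this subfamily 23 genes were tested, with 0 rises and 1 fall (2 and 1 in the paired fit) and a median of 0.01. SLC35D4 had 7.97 and 8.18, 7.71 and 7.56, and 7.36 and 6.73 with miR-135b at 12, 24 and 36 h, against 8.29 and 8.39, 8.31 and 7.86, and 8.16 and 7.96 with scrambled. The gap was narrow at 12 h and wide at 36 h, with effects of -0.26, -0.45 and -1.01. The mean effect was -0.577 ± 0.128 (adjusted p = 0.0328), and its change between the first and last time (36 h minus 12 h) was -0.751 with a 95% interval from -1.45 to -0.05 (adjusted p = 0.893). The call held only without miR-135b at 36 h repeat 1 or 2 or scrambled at 24 h repeat 2, and was lost without any of the other 9 arrays, with an adjusted p up to 0.102. SLC35B3, which brings the sulfate donor PAPS into the Golgi, had 0.375 ± 0.101 and missed the threshold (adjusted p = 0.0694, or 0.0119 in the paired fit).

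SLC20A2, the sodium-dependent phosphate importer PiT-2, was the remaining rise, in 1 of 3 tested phosphate carriers. It had 7.82 and 8.01, 8.27 and 8.18, and 8.18 and 8.13 with miR-135b at the 3 times, against 7.57 and 7.65, 7.83 and 7.86, and 7.87 and 7.93 with scrambled. The miR-135b arrays were above the scrambled arrays of the same time at 12, 24 and 36 h. The rise was 0.314 ± 0.069 (adjusted p = 0.0315) and was lost without any 1 array other than miR-135b at 12 h repeat 1, with an adjusted p up to 0.0966. Its paralogue SLC20A1 had -0.04 ± 0.12.

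**Figure D3:**
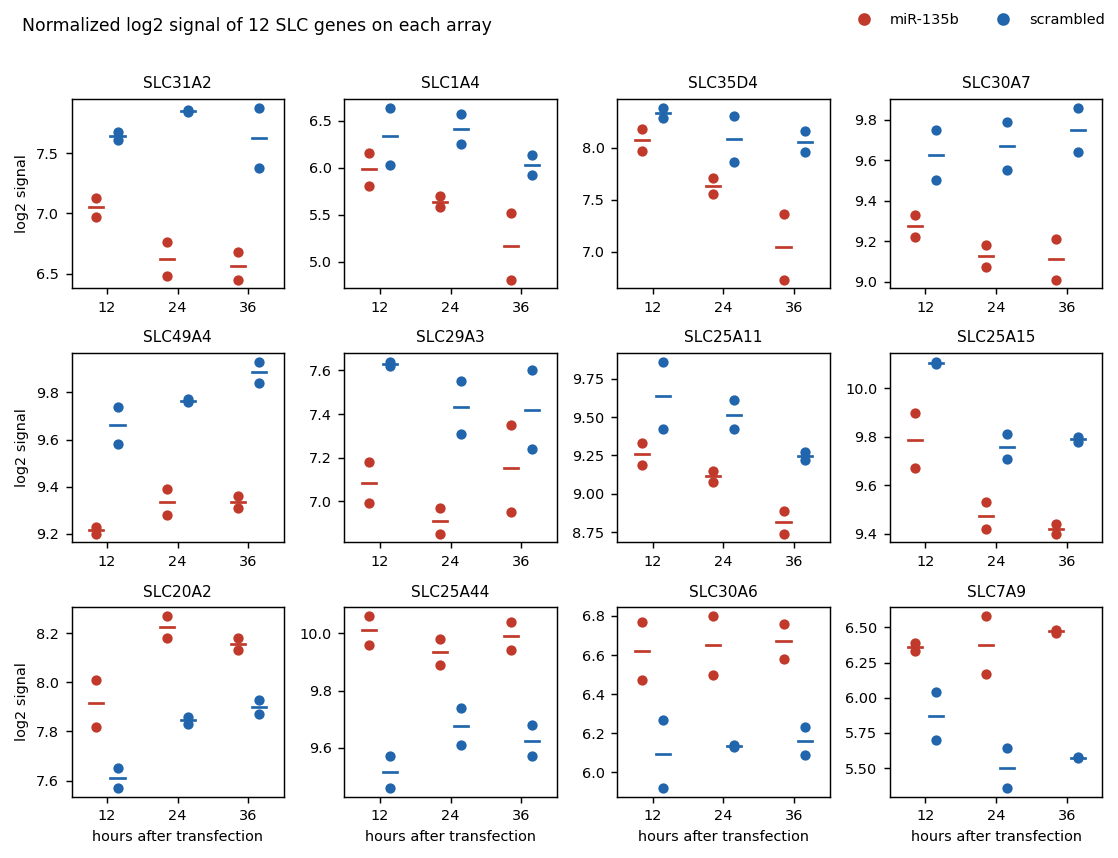
Normalized log2 signal on each of the 12 arrays for the 12 SLC genes that passed in the mean of 3 times, ordered by effect; each panel has its own vertical scale, points are single arrays, and bars are means of 2 repeats. The miR-135b arrays (red) and scrambled arrays (blue) do not overlap at any of the 3 times in 10 of the 12 genes, the exceptions being SLC1A4 at 12 h and SLC29A3 at 36 h.

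The other classes gave 0 calls in the mean of 3 times. These were 16 sugar, 13 chloride, bicarbonate and sulfate, 11 organic ion and drug, 10 sodium, proton and calcium exchange, 9 fatty acid, choline and lipid, 7 vitamin and folate, 6 monocarboxylate and 4 iron, manganese and magnesium carriers, and 9 genes of other or newer subfamily numbers. In the paired fit these classes had 0 falls, and the rises were 3 among organic ion and drug, 2 among sugar, 2 among fatty acid, choline and lipid, and 1 each among chloride, bicarbonate and sulfate, among exchange, and among iron, manganese and magnesium carriers. Among the organic ion and drug rises, SLC22A11 (paired adjusted p = 0.045) was detected on 2 miR-135b arrays and 0 scrambled arrays. It could be tested only through the treatment in which it was higher. SLC2A1, the main glucose importer GLUT1, had -0.02 ± 0.10. SLC45A3, the luminal prostate protein prostein, had -0.13 ± 0.12 with a 95% interval from -0.39 to 0.13. A list of 42 carriers of prostate and of nutrient uptake had 31 tested genes, of which 0 rose and 2 fell, SLC31A2 and SLC1A4, with a median of -0.02. The paired fit called 1 rise and 3 falls in it, with SLC2A12 and SLC43A1 added. Of all 207 genes, 3 had an effect beyond 1.5-fold in either direction, namely SLC31A2, SLC1A4 and SLC7A9. On the authors' processed values, or with an offset of 50, that count was 1, SLC31A2, and the other two rest on probes detected on 3 of 6 arrays of one treatment.

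Between repeats the median SD over SLC genes was 0.117 to 0.173 on the log2 scale. The sample titles number the repeats without saying that same-numbered cultures were paired. Pairing of miR-135b with scrambled arrays of a time by repeat number was therefore assumed. A fit that used this pairing within each time called 17 rises and 12 falls, the 12 calls above among them, beside 11.6% of all genes called in that fit. The rises include SLC22A11, which was detected on 2 miR-135b arrays and 0 scrambled arrays. Among the added genes were the calcium-regulated mitochondrial ATP-Mg and phosphate carrier SLC25A24 (-0.463 ± 0.144, paired adjusted p = 0.00474) and the creatine transporter SLC6A8 (-0.356 ± 0.155, paired 0.0136). SLC22A23, of the organic ion family, had 0.454 ± 0.127 (paired 0.00598). A second kept probe of SLC22A23 had 0.17 ± 0.09, with 0.02, 0.01 and 0.48 at 12, 24 and 36 h. SLC41A3, of the magnesium carriers, had 0.374 ± 0.104 (paired 0.0166), and its second kept probe had 0.32 ± 0.1. The glucose transporter gene SLC2A12, or GLUT12, had 0.417 ± 0.123 (paired 0.0175), and SLC38A9, the lysosomal arginine sensor upstream of mTORC1, had 0.321 ± 0.097 (paired 0.0223). None of these added genes passed in the unpaired fit, where SLC25A24 had an adjusted p of 0.113, SLC22A23 0.0796 and SLC2A12 0.0965. For SLC25A24 the signal was 6.23 and 6.80, 7.08 and 6.63, and 6.86 and 6.59 with miR-135b at the 3 times, against 6.57 and 7.04, 7.31 and 6.94, and 7.64 and 7.47 with scrambled. Within each time, each miR-135b array was below the scrambled array of the same repeat number, while the treatments overlapped at 12 and 24 h.

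At single times fewer genes passed. At 12 h 0 of 207 SLC genes were called, beside 0.0356% of all genes, and 18 (8.7%) had an unadjusted p under 0.05, beside 4.97% of all genes. At 24 h SLC31A2 alone was called, beside 0.81% of all genes, and the paired fit added SLC7A9 (0.872), SLC27A1 (0.666), a fatty acid transport protein, and SLC43A3, beside 2.71%. SLC43A3 was detected on 0 of 2 miR-135b arrays and 2 of 2 scrambled arrays at 24 h. The estimated fall there was at least 1.38-fold (means 5.42 and 6.17, paired adjusted p = 0.0407). Its effects at 12 and 36 h were 0.06 and 0.08, and its probe was detected on 4 of 12 arrays. The mean effect was -0.21 ± 0.15 and did not pass in either fit. At 36 h SLC7A9 rose and SLC31A2 fell, beside 1.76% of all genes, and the paired fit called 10 genes, 5 in each direction, beside 5.71%. The 24 h call was lost without any 1 of the 4 arrays of that time. At 36 h both calls were lost without miR-135b repeat 2 or either scrambled repeat of that time, and 1 remained without miR-135b at 36 h repeat 1 or without either miR-135b array of 12 h.

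Each treatment's own change between 12 and 36 h was also fitted, and these contrasts share arrays with the effects above. For 36 h minus 12 h in the effect of miR-135b, 0 SLC genes and 0% of all genes were called, and 7 SLC genes (3.38%) had an unadjusted p under 0.05, beside 5.39% of all genes. In miR-135b cells at 36 h against 12 h, 0 SLC genes passed, beside 1.25% of all genes, and 41 (19.8%) had an unadjusted p under 0.05, beside 17.3%. In scrambled cells at 36 h against 12 h, 0 passed, beside 0.0178%, and 34 (16.4%) had an unadjusted p under 0.05, beside 13.5%. With the repeat number as a block, 6 SLC genes passed in miR-135b cells, beside 4.63% of all genes in that fit, and 2 in scrambled cells, beside 0.605%. SLC30A1 was called in both, with -0.60 in miR-135b cells (adjusted p = 0.0288) and -0.71 in scrambled cells (0.0422). Its signal was 9.31 and 9.26 at 12 h, 9.11 and 8.95 at 24 h and 8.68 and 8.69 at 36 h with miR-135b, against 9.48 and 9.28, 9.09 and 8.92, and 8.64 and 8.69 with scrambled. Its levels were lower at 36 h than at 12 h on all arrays of both treatments.

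At each of the 3 times, 21 of the 207 SLC genes (10.1%) had both miR-135b arrays on the same side of both scrambled arrays, 10 above and 11 below, beside 7.1% of all genes. They included 10 of the 12 called genes. Among the uncalled ones were SLC50A1, of the sugar carrier family known as SWEET (0.295 ± 0.075, adjusted p = 0.0582, or 0.0292 in the paired fit), and the Golgi UDP-galactose carrier SLC35A2 (-0.201 ± 0.080, adjusted p = 0.216).

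**Figure D4:**
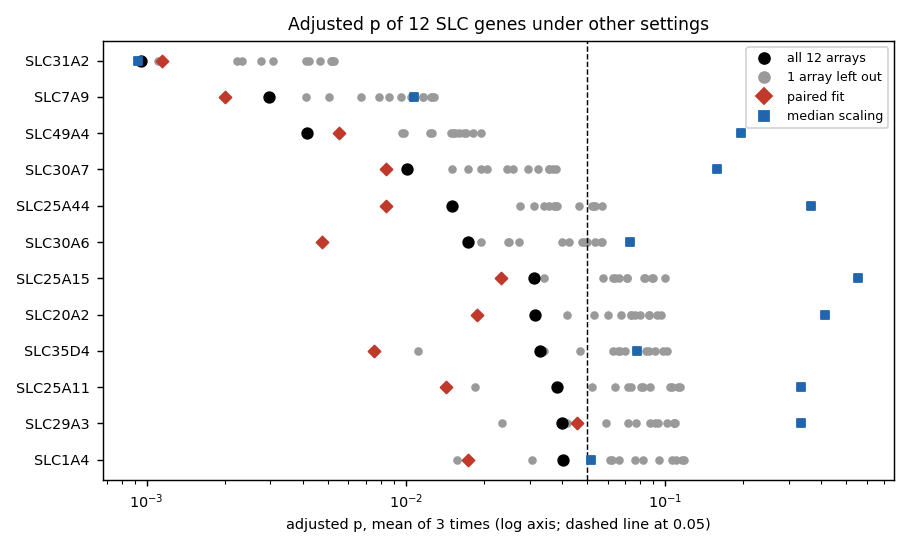
Adjusted p on a log axis for the mean effect of the 12 called SLC genes with all 12 arrays (black), with 1 array left out at a time (grey), in the paired fit (red diamonds) and with median scaling in place of quantile normalization (blue squares); the dashed line is 0.05. SLC31A2 and SLC7A9 stay left of the line in all of these, and SLC49A4 and SLC30A7 cross it only with median scaling.

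Genes that work beside the SLC carriers were counted from lists. Of all genes tested, 4.78% were called in the mean of 3 times and 11.6% in the paired fit. Of 18 tested ABC transporter genes, 0 rose and 1 fell, the ribosome recycling factor ABCE1 (-0.45 ± 0.10, adjusted p = 0.0349), which is not a transporter. Of 18 P-type ATPase genes, 0 rose and 2 fell, the sodium pump subunit ATP1B1 (-0.49 ± 0.07, adjusted p = 0.00363) and the calcium pump ATP2B4 (-0.80 ± 0.15, adjusted p = 0.0145). Of 18 V-type ATPase genes, which acidify lysosomes and endosomes, 0 rose and 1 fell, ATP6V1E1 (-0.61 ± 0.08, adjusted p = 0.00178). Of 15 SLCO and atypical carriers, 0 were called. Of 26 partner and regulator genes, 1 rose, COX11, and 0 fell. The paired fit added ABCC5 (0.25) to the rises of the ABC genes, ATP7A (0.35) to those of the P-type ATPases, and ATP6V1B1 (0.39) and ATP6AP1 (0.28) to those of the V-type ATPases. It added to the falls the V-type ATPase gene ATP6V1C1 (-0.26), the SLCO gene SLCO4A1 (-0.33) and the carrier-regulating kinase gene STK39 (-0.57), and it added CCS (0.33) to the rises among partners. The medians of these 5 lists lay between -0.04 and 0, beside 0 for all genes.

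The 5 genes of highest Pearson correlation with SLC31A2 over the 12 arrays were PGAM4 (0.971), ELK1 (0.967), APOO (0.964), TMEM237 (0.961) and NCOA1 (0.96). These points share arrays and treatment, and all 5 genes were lower with miR-135b, from -0.33 for ELK1 to -0.90 for TMEM237.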

How the data were processed

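RNA of 12 LNCaP cultures was read on Illumina arrays. Per the file headers, the deposited non-normalized table gives a linear signal intensity and a detection p-value for 47323 probes. The authors also deposited processed log2 values, with a median of 6.736 on each array; set against log2 of the raw signal its slopes were 0.962 to 1.03. The submitters' processing notes name GenomeStudio 2010.2 and lumi 1.8.3 but not what each did.

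Intensities were corrected with limma 3.58.1 (R 4.3.3; normexp, negative controls inferred from detection p, offset 16), quantile normalized and taken to log2. Background correction widens, and the offset shrinks, fold changes of dim genes. Of 47323 probes, 30113 have 1 gene name in the platform annotation, 8 several and 17202 none; old symbols were updated from RefSeq. Each gene was represented by its kept probe of highest mean. Of the 43 SLC genes with several kept probes, 14 had probes of opposite sign. Probes of different genes are not compared in level.

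One model with 6 group means (lmFit, eBayes, 6 residual degrees of freedom) gave all contrasts, two-sided. Deviations of same-numbered miR-135b and scrambled arrays from their group means correlated at 0.47, 0.46 and 0.58 at 12, 24 and 36 h, all above 0.1, so counts from a paired fit with 3 residual degrees of freedom, and its values for some of the genes it adds, are given beside the unpaired ones. Repeats of 1 line carry the spread between cultures of that line only, and 2 repeats per group limit the precision. The script was tested on simulated data. The arrays detected 15967 to 17856 probes each, and repeats correlated at 0.9787 to 0.9892.

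Genes to name were drawn from those called in any contrast and the 12 highest and 12 lowest effects. The extremes of each subfamily with 4 or more tested genes and a list of well-known carriers were drawn too. These rules give 70 genes, of which the text names only some. Left out among the 12 highest or lowest effects are, for example, SLC9B2 (0.39), SLC25A30 (0.34) and SLC48A1 (-0.35). The 5 genes most like the top one are given too. Other kept probes are given only for SLC25A15, SLC22A23 and SLC41A3. SLC9A3, SLC30A1, SLC30A5, SLC43A3, SLC50A1 and the uncalled copper and metallothionein genes fall outside these rules and were chosen after their values were seen. The SLC members and all lists were chosen with earlier results of these data known.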

Additional observations from a re-analysis of the deposited data

How the results depend on the processing

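The count of 12 called SLC genes in the mean of 3 times became 2 with median scaling, under which the median of all genes was 0.03, and 29 with the replicate block within each time, that is the pairing; with 1 array left out it lay between 4, without miR-135b at 12 h repeat 2, and 10. The split of 4 rises and 8 falls was 7 and 7 without background correction, the same on the authors' table, and 1 and 1 with median scaling. At 24 h the count of 1 became 0 with median scaling, 4 with the pairing and 2 with the repeat number as a block over all 12 arrays, and lay between 0 and 1 with 1 array left out. At 36 h the count of 2 became 5 on the authors' values, 5 without background correction, 5 with offset 50, 5 over genes detected on all 12 arrays, 0 with median scaling, 10 with the pairing and 6 with the repeat block, and lay between 0 and 2 with 1 array left out. For miR-135b cells at 36 h against 12 h, 0 became 4 on the authors' values, 4 without background correction, 4 with offset 50, 4 over genes detected on all 12 arrays, 1 with the mean of a gene's probes and 6 with the repeat block; for scrambled cells 0 became 2 with that block. The counts at 12 h and for 36 h minus 12 h were 0 in all settings run. Shares of all genes called are given above for the main and paired fits and, within each treatment over time, for the repeat block. For the other settings they are not given, so a count that moved along with all genes cannot be told apart. SLC31A2 and SLC7A9 were called in the mean of 3 times in each setting that tested them. Among the values of named genes under alternatives, 0 changed sign at a call, 25 gained a call, 86 lost one and 1349 did neither. The cause was not tested. Among the called genes, the dim SLC7A9, SLC1A4 and SLC30A6 lost the largest share of their effect on the authors' processed values (0.344, -0.303 and 0.269). Those values follow the uncorrected signal closely. SLC31A2 went from -0.963 to -0.63 on them, a smaller share of its effect.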
